A study of Mus musculus with 4 samples.

Results

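The clustered protocadherin genes are the 57 protein-coding genes of mouse chromosome 18 whose symbols begin with Pcdha, Pcdhb or Pcdhg, out of 21951 protein-coding genes of the annotation. They were chosen by name and position, not by a measured value. They lie head to tail on the forward strand from position 36930184 to 37841873 of the mm10 build. Accessible sites were taken from the interval of 1150 kb around them, from 36800000 to 37950000, which held 250 peaks in the 4 libraries.

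The libraries were ATAC-seq libraries, in which the Tn5 transposase cuts open chromatin and a pile of sequenced ends marks an accessible site. They came from embryoid bodies at day 4, the aggregates in which mouse embryonic stem cells begin to differentiate. Wild-type (WT) bodies came from the stem cell line E14Tg2A. K20R bodies came from the same line after lysine 20 of CTCF, the DNA-binding protein that marks many chromatin loop ends, had been changed to arginine with CRISPR/Cas9. There were 2 libraries of each genotype. Both genotypes were grown with leukemia inhibitory factor and the 2i inhibitors on inactivated mouse embryo fibroblasts, and bodies were then formed in hanging drops without that factor. The K20R cells were picked as edited colonies, and the number of colonies behind the libraries is not given in the sources used here, so the substitution and any other difference of the picked cells from the parental line cannot be told apart.

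Clustered protocadherins are adhesion proteins of the cell surface that give a neuron an identity by which it recognises its own branches. Every alpha and gamma gene has its own promoter and a large variable exon, spliced to constant exons shared by the cluster, while the beta genes have no constant exons. A neuron uses a few of the alternate promoters, chosen largely at random, whereas the C-type genes, which lie nearest the constant exons, are used more uniformly. CTCF and cohesin bind many of these promoters and alpha exons and bring them to distant enhancers.

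The lists held 59783 and 66703 peaks in WT and 51823 and 55832 in K20R. The interval held 58 and 65 of the WT peaks and 63 and 64 of the K20R peaks, a mean of 61.5 ± 4.95 against 63.5 ± 0.707 (SD, n = 2 each; exact two-sided permutation test, p = 1). It took 0.0970% and 0.0974% of the WT lists and 0.122% and 0.115% of the K20R lists. These shares did not overlap (exact two-sided permutation test, p = 0.333). The K20R lists were shorter, so a similar count made up a larger share of them. With 2 against 2 libraries 0.333 is the smallest p this test can give, so no difference below can pass a threshold of 0.05. Genotypes are therefore described by whether their libraries overlap: a site is called lower when both K20R libraries lay below both WT libraries, and higher in the opposite case.

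Promoters of marker genes of several cell types were also read. This cannot check the labelled tissue, because markers of every type had peaks. A peak within 1 kb of a transcription start site (TSS) was present in every library for 7 of 8 markers of pluripotent cells (2 lower, 3 higher), 7 of 8 of early mesoderm (4 lower, 2 higher), 9 of 10 of neural cells (1 lower, 3 higher) and 4 of 8 of fibroblasts (1 lower, 0 higher). Among all protein-coding genes 66.3% had such a peak in every library, and of these 32.2% were lower and 15.7% higher. An accessible promoter does not give the share of a cell type, and the part of remaining feeder fibroblasts in the signal was not tested. In bulk libraries fewer cells with an open site and less opening per cell cannot be told apart.

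Each peak is given by its percentile within its own list, ranked by the caller's −log10 p, where 100 is the strongest peak. The summit pileup is the number of reads, as extended by the caller, that were stacked at the highest point of the peak.

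Promoter peaks were found at a similar number of clustered genes in every library. They were 31 and 32 of 57 in WT and 31 in each K20R library, beside 68.2%, 68.8%, 67.8% and 68.3% of all protein-coding genes in the same order. A peak in every library was present at 29 genes, or 50.9%, beside 66.3% of all protein-coding genes. No library had a peak at 24 genes, and over all protein-coding genes this held for 29.7%. The other 4 genes, with a peak in some libraries, were Pcdha8, Pcdhb12, Pcdhb16 and Pcdhgb2.

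The groups of genes differed widely. A peak in every library was present at 11 of 12 gamma A promoters, 4 of 5 C-type, 8 of 12 alpha, 4 of 6 gamma B and 2 of 22 beta promoters. The beta genes with one were Pcdhb3 and Pcdhb11. The genes without a peak in any library were 18 beta genes, 3 alpha genes (Pcdha2, Pcdha6 and Pcdha7), Pcdhga6, Pcdhgb1 and Pcdhgc5. Peak numbers in the lists have gaps, and at 22 of these 24 genes at least 1 number, and at most 6, is missing between the flanking peaks of some list, at 17 of them in every list. A peak that had been called and then removed cannot be told apart from no peak there. No number is missing from any list at the other 2, Pcdhb18 and Pcdhgc5. Counts of genes with a peak hardly moved between libraries, from 8 to 9 in alpha, 2 to 4 in beta, 4 to 5 in gamma B, and 11 and 4 throughout in gamma A and the C-type genes.

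**Figure D1:**
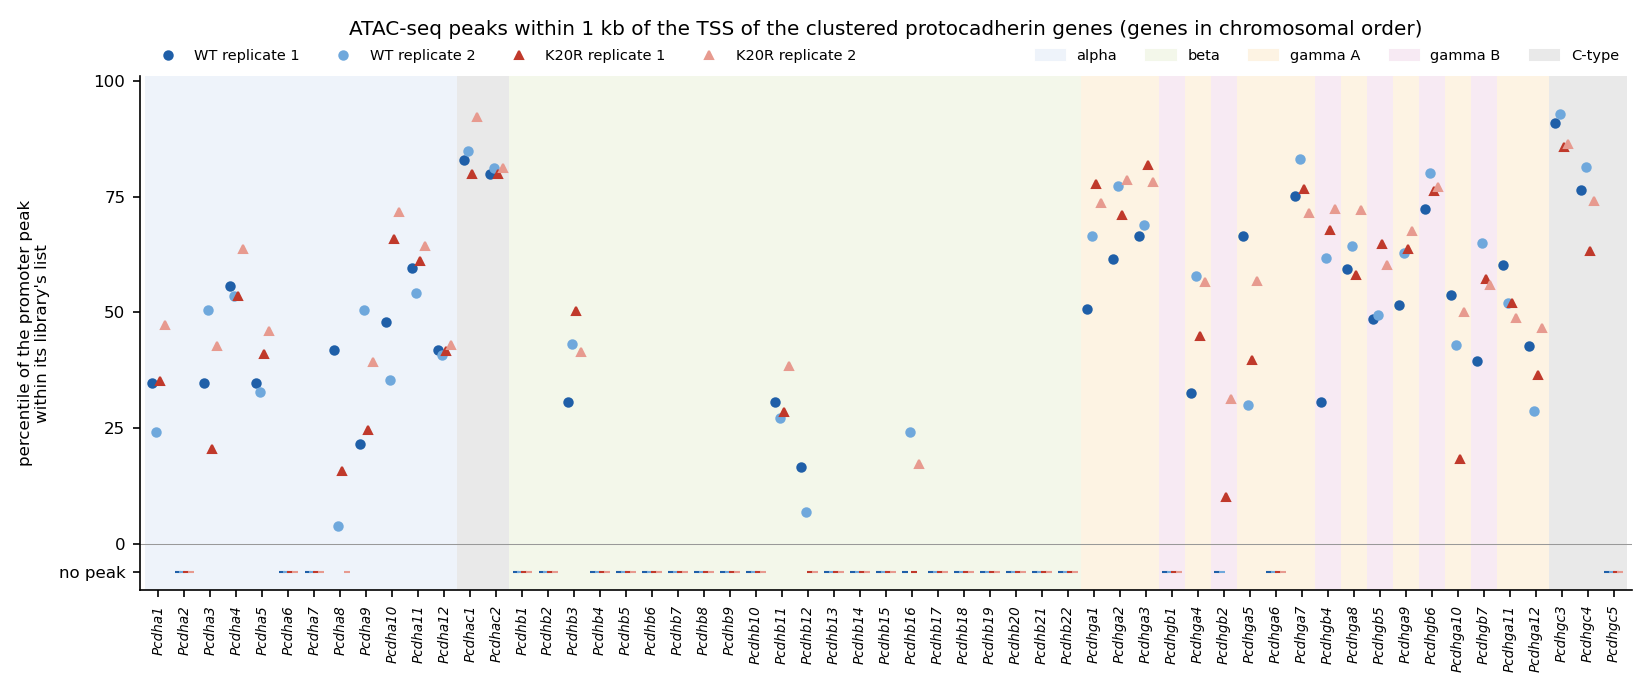
Percentile of the strongest peak within 1 kb of the TSS (vertical axis) for each of the 57 genes in chromosomal order (horizontal axis), with circles for WT libraries, triangles for K20R libraries and dashes where a library had no peak. The C-type genes Pcdhac1, Pcdhac2 and Pcdhgc3 stay at a percentile of 79.9 or above in every library, and 18 of the 22 beta genes have no peak in any.

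Base composition differed along the same groups. Within 250 bp on both sides of the TSS the median GC content was 58.1% in C-type, 48.3% in gamma B, 45.7% in gamma A, 44.1% in alpha and 41.5% in beta genes. The median ratio of observed to expected CpG was 0.649, 0.716, 0.481, 0.662 and 0.384 in the same order. Over the 29 genes with a peak in every library the median GC content was 46.9%, against 62.7% over the 14550 protein-coding genes with such a peak. Open clustered promoters were thus poorer in G and C than open promoters elsewhere.

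Of the C-type promoters, those of Pcdhgc3, Pcdhac1 and Pcdhac2 had the highest mean percentiles of the family, while Pcdhgc4 ranked among the stronger gamma promoters and Pcdhgc5 had no peak. At Pcdhgc3 the percentile was 90.8 and 92.7 in WT against 85.7 and 86.3 in K20R, on pileups of 86 and 137 against 80 and 127. Pcdhgc4, whose protein supports the survival of cortical interneurons, had percentiles of 76.4 and 81.3 in WT against 63.4 and 74.0 in K20R, on pileups of 67 and 115 against 50 and 91. Both genes were lower in K20R, also when ranked anew among genes with a peak in every library and on the scale of log2 pileup centred within each library, where K20R minus WT was -0.25 at Pcdhgc3 and -0.52 at Pcdhgc4.

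The alpha C-type genes did not share this order. At Pcdhac1 the percentile was 82.9 and 84.9 in WT against 80.0 and 92.2 in K20R. Pcdhac2 had 79.9 and 81.3 in WT against 79.9 and 81.3 in K20R, so that its genotypes overlapped within the list. On the other scales Pcdhac2 was higher in K20R, by 4.31 points when ranked anew and by 0.10 on the centred log2 pileup. Pcdhac1 was higher on the centred log2 pileup, by 0.36. The calls of both genes thus rest on the scale, and no direction is read for them.

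Over the 29 genes with a promoter peak in every library, 3 were lower in K20R, 9 were higher and 17 overlapped, beside 32.2% lower and 15.7% higher over the 14550 protein-coding genes with such a peak. Ranked anew among these genes, 2 clustered genes were lower and 12 higher, beside 22.9% and 23.9%. On the centred log2 pileup 2 were lower and 18 higher, beside 24.2% and 26.4%. The median difference over the 29 genes, K20R minus WT, was 4.37 percentile points in the list, 1.82 points when ranked anew, and 0.36 on the centred log2 pileup. The background shares of higher and lower genes turned round with the scale, while the clustered genes had more higher than lower members on all 3 scales. The scales read the same peaks, so their shared direction is not separate evidence. Here and below, the clustered promoters were not set against other promoters of like strength. Their median percentiles ran from 51.5 to 63.7 across the libraries. A weak site was counted only with a peak in every list, and the K20R lists were shorter. The part of this entry rule in the directions was not tested.

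Of the 8 alpha promoters with a peak in every library 4 were higher in K20R and none was lower. Over all protein-coding genes with such a peak 15.7% were higher and 32.2% lower. At Pcdha10 the percentile was 47.9 and 35.3 in WT against 65.9 and 71.7 in K20R, on pileups of 19 and 19 against 32 and 50. A pileup of 19 has an exact 95% Poisson interval of 11.4 to 29.7 and one of 50 an interval of 37.1 to 65.9, both for counting error only. Pcdha11 had 59.7 and 54.3 in WT against 61.0 and 64.3 in K20R. Pcdha4 had 55.6 and 53.5 in WT against 53.5 and 63.7 in K20R and overlapped. It was higher when ranked anew, by 2.95 points, and on the centred log2 pileup, by 0.40. Its pileups were 22 and 28 against 26 and 50, and its call rests on the scale. The other higher alpha genes, named after their values were seen, were Pcdha1 and Pcdha5. The alpha promoters were weak as a group, with percentiles from 20.4 to 71.7 and pileups from 12 to 50.

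Of the 15 gamma A and B promoters with a peak in every library 5 were higher and 1 was lower. The shares over all protein-coding genes with such a peak were 15.7% higher and 32.2% lower. Pcdhga1, the first gamma gene, had percentiles of 50.7 and 66.4 in WT against 77.8 and 73.6 in K20R, on pileups of 20 and 37 against 46 and 60. Pcdhga3 had 66.4 and 68.9 in WT against 81.8 and 78.1 in K20R, on pileups of 28 and 40 against 56 and 76. In both genes the K20R libraries lay above both WT libraries. Pcdhgb4 had 30.6 and 61.7 in WT against 67.8 and 72.4 in K20R, with WT libraries that lay far apart. Pcdhgb5 had 48.5 and 49.3 in WT against 64.7 and 60.3 in K20R. Pcdhga9 had 51.5 and 62.7 in WT against 63.7 and 67.7 in K20R. These 5 genes stayed higher when ranked anew and on the centred log2 pileup, where K20R minus WT was 0.81, 0.82, 1.00, 0.79 and 0.54 in the order given.

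The lower gamma gene was Pcdhga11, with 60.3 and 52.1 in WT against 51.9 and 48.8 in K20R. On the centred log2 pileup it was higher instead, by 0.24, with pileups of 29 and 35 against 35 and 49. Its direction therefore rests on the scale.

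The other gamma A and B promoters overlapped between the genotypes by percentile. On the centred log2 pileup Pcdhga8, Pcdhgb6, Pcdhgb7 and Pcdhga12 were higher, so their calls rest on the scale. The strongest overlapping promoter was Pcdhga7, with 75.2 and 83.1 in WT against 76.6 and 71.5 in K20R. Next came Pcdhgb6, with 72.4 and 80.2 against 76.3 and 77.2. Pcdhga2 had 61.6 and 77.3 in WT against 71 and 78.6 in K20R, and Pcdhga8 had 59.4 and 64.4 against 58.2 and 72.2. In several of the weaker promoters the libraries of the same genotype differed more than the genotypes did. Examples were Pcdhga5, with 66.4 and 30.0 in WT against 39.8 and 56.8 in K20R, Pcdhga4, with 32.7 and 57.8 against 44.9 and 56.5, and Pcdhgb7, with 39.4 and 64.9 against 57.2 and 55.8.

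A promoter peak in both libraries of a single genotype and in neither of the other was found at 2 of the 57 genes. Over all protein-coding genes 0.752% had this pattern for WT and 0.456% for K20R. Pcdhb12 had its peak, at 37435488 to 37435940, in WT, at percentiles of 16.6 and 7.0 on pileups of 11 and 10. Pcdhgb2 had its peak, at 37689785 to 37690118, in K20R, at percentiles of 10.1 and 31.4 on pileups of 14 and 29. Both sites were weak. Of the peak numbers, 1 and 2 are missing around the Pcdhb12 site in the K20R lists and 1 and 0 around the Pcdhgb2 site in the WT lists.

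Merged across libraries, the peaks of the interval formed 68 regions. Of these 54 were common to all libraries, beside 47.9% of the 80380 regions of the genome. The promoter regions of Pcdhb12 and Pcdhgb2 were the only ones restricted to WT and to K20R, beside 10.4% and 3.1% of the regions of the genome. The remaining 12 had another pattern.

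Of the 54 common regions 15 were lower in K20R, 10 were higher and 29 overlapped, beside 34.8% lower and 18.6% higher over the 38527 common regions of the genome. Ranked anew among common regions, 10 were lower and 21 higher, beside 25.5% and 29.2%. On the centred log2 pileup 10 were lower and 29 higher, beside 23.7% and 35.6%. The directions were unevenly placed along the chromosome.

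**Figure D2:**
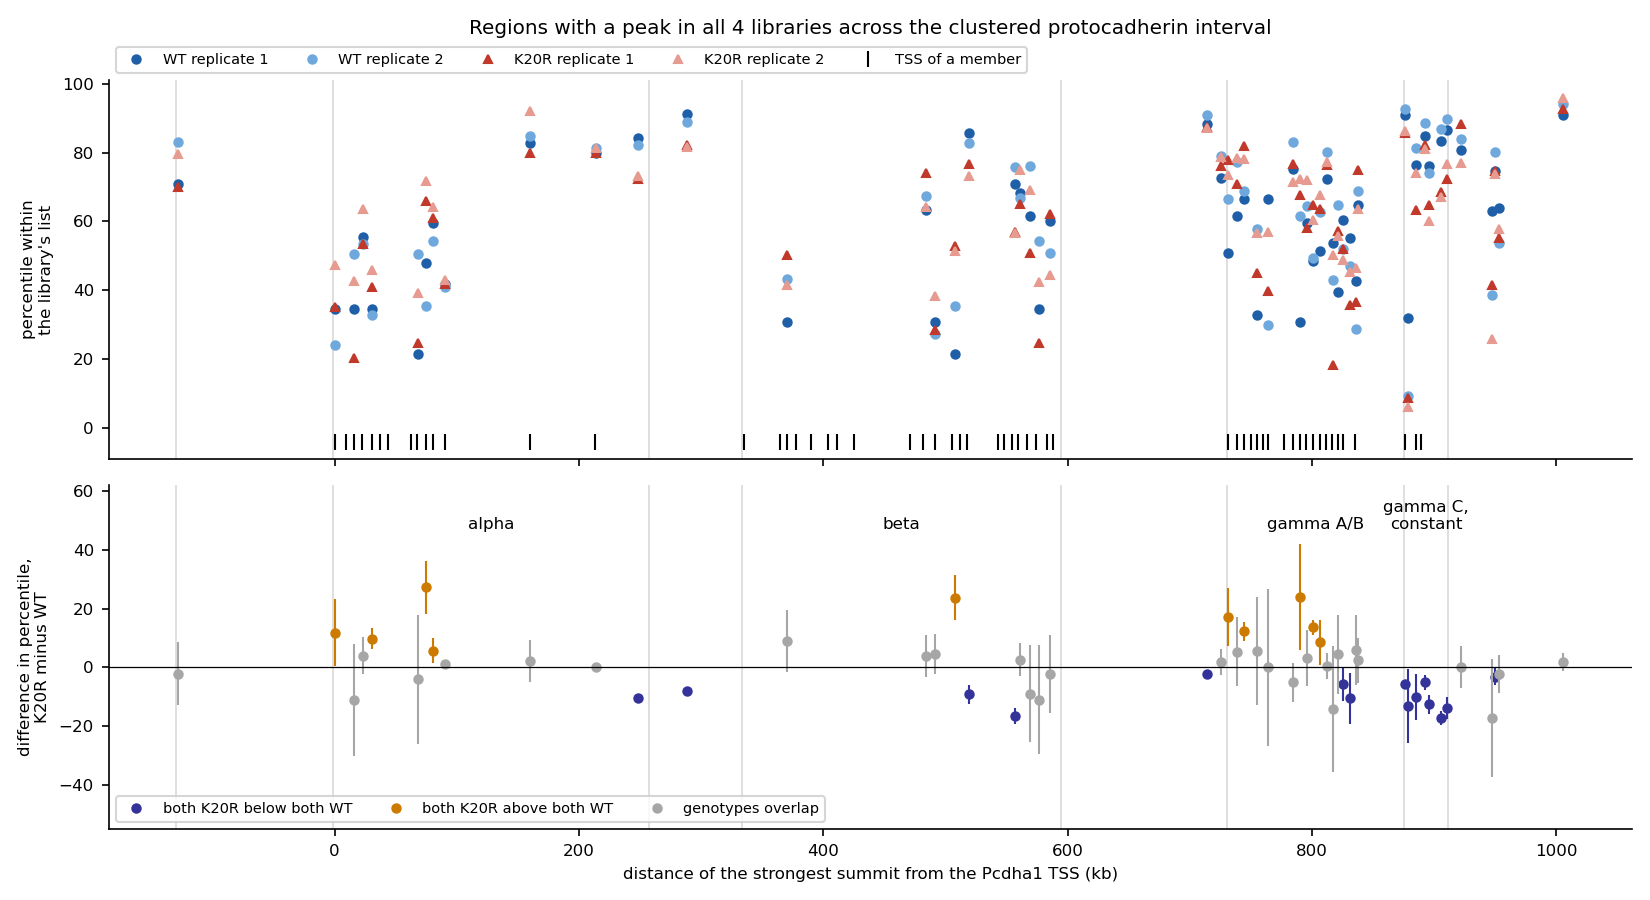
Percentile in each library (upper panel) and difference of the genotype means in percentile points, K20R minus WT (lower panel), for the 54 common regions by distance from the Pcdha1 TSS in kb, where vertical lines run from the smallest to the largest difference between a K20R and a WT library, ticks mark TSSs and grey lines divide the zones. All 7 regions over the gamma C-type genes and constant exons are lower in K20R, and the 10 higher regions lie over the alpha, beta and gamma A and B genes.

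From 37805410 to 37841873, over the gamma C-type genes and the gamma constant exons, all 7 common regions were lower in K20R. When ranked anew 6 of them were lower and none higher, and so it was on the centred log2 pileup. Over the gamma A and B genes, from 37660793 to 37805409, 2 of 17 common regions were lower and 5 higher, and on the centred log2 pileup 0 were lower and 13 higher. The median of K20R minus WT on that scale was -0.42 over the C-type genes and constant exons and 0.55 over gamma A and B. Neighbouring regions are not independent, and the zones were not compared with each other by a test.

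Beside the promoters of Pcdhgc3 and Pcdhgc4, the 7 regions comprised 5 further sites. The intronic region at 37835298 to 37836781 had percentiles of 83.3 and 86.9 in WT against 68.6 and 67.2 in K20R, on pileups of 86 and 142 against 51 and 76. The region at 37840482 to 37842946, whose summit lay in the untranslated part of the last constant exon, had 86.6 and 89.7 in WT against 72.3 and 76.6 in K20R, on pileups of 109 and 181 against 68 and 116. At both sites the gap between the genotypes was wider than that between libraries of the same genotype. The intronic region at 37822159 to 37823014, with its summit 3202 bp downstream of the Pcdhgc5 TSS, had 84.7 and 88.6 in WT against 82.1 and 81.0 in K20R. K20R minus WT on the centred log2 pileup was -0.87, -0.71 and -0.31 at these sites.

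The last 2 sites were singled out after their values were seen. The intronic region at 37824632 to 37826782 had percentiles of 76.0 and 74.2 in WT against 64.9 and 60.1 in K20R. The region at 37808212 to 37809015, inside the Pcdhgc3 exon, had 32.0 and 9.28 in WT against 8.54 and 6.08 in K20R, and was the region of the 7 that overlapped on the other scales.

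A pair of strong sites at the downstream end of the alpha genes was also lower. The intronic region at 37177904 to 37179244, with its summit 35003 bp downstream of the Pcdhac2 TSS, had percentiles of 84.1 and 82.4 in WT against 72.3 and 73.1 in K20R, on pileups of 58 and 81 against 45 and 70. The region at 37217100 to 37218490, between the alpha and beta genes, had 91.2 and 88.9 in WT against 82.2 and 81.6 in K20R, on pileups of 71 and 94 against 58 and 88. Both stayed lower when ranked anew and on the centred log2 pileup, with K20R minus WT of -0.33 and -0.24. The second of these regions held the CTCF core consensus on the reverse strand. Enhancers of the alpha genes are known downstream of them, but the files and the annotation do not mark enhancers, and no region was matched to one.

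Other strong common sites outside promoters mostly overlapped between the genotypes by percentile. The region at 37655221 to 37656275, upstream of Pcdhga1, had percentiles of 72.6 and 78.9 in WT against 76.1 and 78.7 in K20R. It was higher when ranked anew, by 6.89 points, and on the centred log2 pileup, by 0.39, so its call rests on the scale. The region at 36800764 to 36802393, upstream of the whole cluster, had 70.9 and 83.0 against 70.0 and 79.5. The region at 37851960 to 37853184, in an intron of the neighbouring gene Diaph1, had 80.8 and 84.0 against 88.2 and 77.0. Another Diaph1 intron region, at 37879897 to 37880512, was lower in the list, with 74.8 and 80.0 against 74.7 and 73.9, but overlapped when ranked anew.

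Many beta genes without an open promoter had an accessible site near the end of their exon. A common region with its strongest summit over 1000 and up to 3000 bp downstream of the TSS was present at 8 of 22 beta genes (Pcdhb10, Pcdhb12, Pcdhb14, Pcdhb17, Pcdhb18, Pcdhb19, Pcdhb20 and Pcdhb21), 7 of them without a promoter peak in any library. Such a region was present at 5.74% of all protein-coding genes and at 2.04% of the 6528 without a promoter peak. The 8 summits lay in coding sequence, 2096 to 2426 bp from the TSS. Outside the beta genes the pattern occurred at Pcdhga12, 2716 bp from the TSS, and at Pcdhgc3, 2113 bp from it.

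The letters of the CTCF core consensus, searched on both strands, stood at the same end of the beta exons. The first coding exon held the consensus in 13 of 22 beta genes, each time on the strand opposite to the gene and 2271 to 2810 bp from the TSS. It held it in 6 of 12 alpha genes, each time on the strand of the gene and 537 to 581 bp from the TSS, and in no gamma or C-type gene. Within 3000 bp downstream of the TSS the consensus stood on the gene's strand in 0.925% and on the opposite strand in 1.02% of all protein-coding genes. Alpha and beta exons thus carried it in opposite orientations and near opposite ends.

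**Figure D3:**
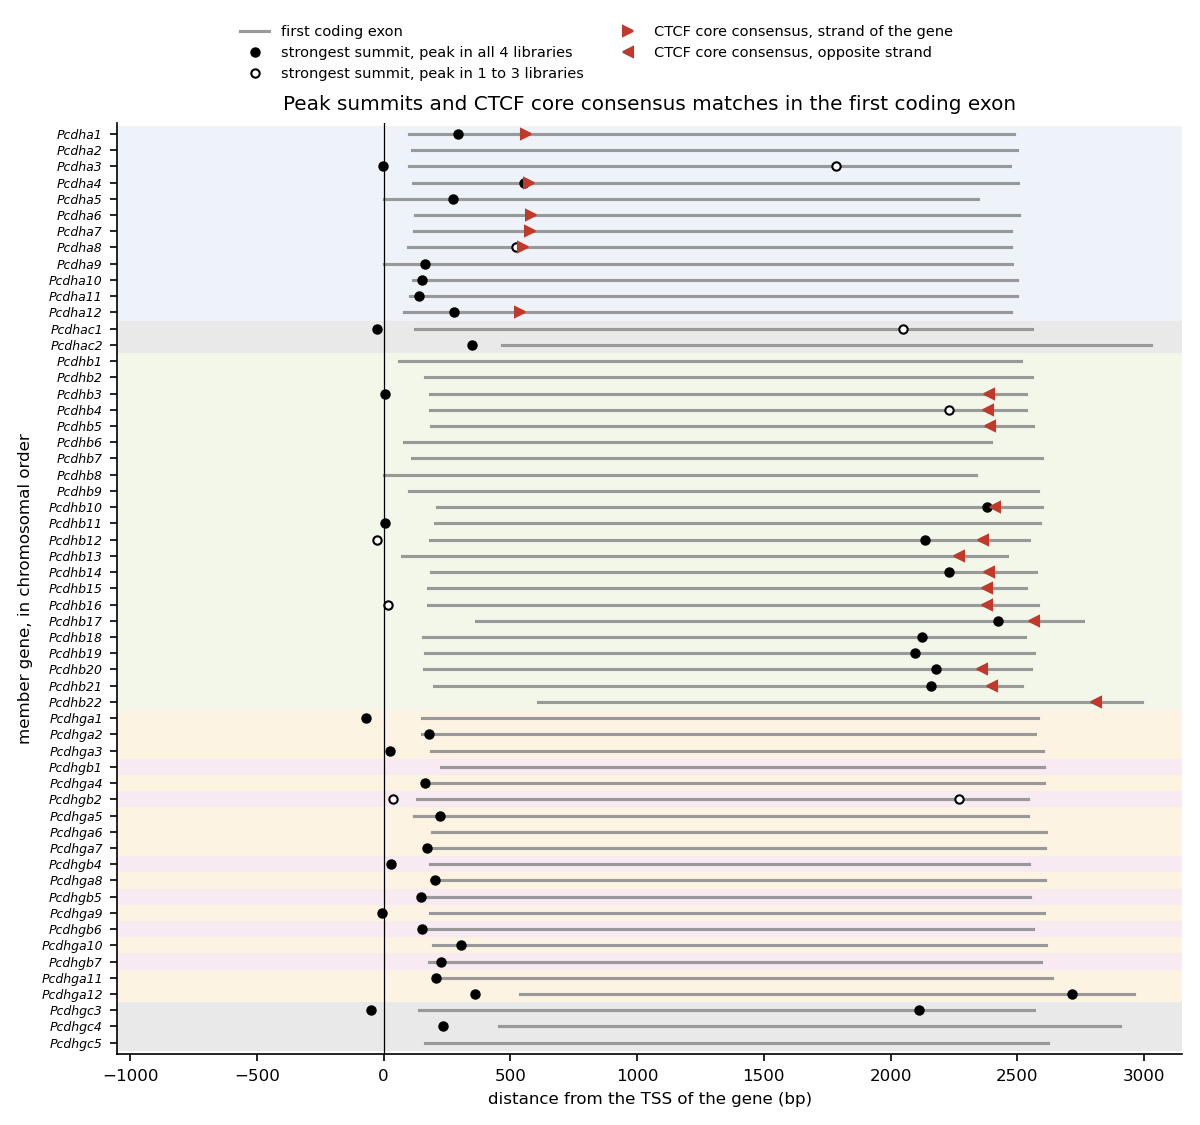
Strongest summits of regions (circles, filled where all 4 libraries had a peak) and matches to the CTCF core consensus (triangles, pointing right on the strand of the gene and left on the opposite strand) by distance from the TSS in bp (horizontal axis) for the 57 genes in chromosomal order (vertical axis), with the first coding exon as a grey line. In beta genes the 13 matches lie 2271 to 2810 bp and the 8 common exon summits 2096 to 2426 bp from the TSS, and in alpha genes the 6 matches lie 537 to 581 bp from it.

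Of the 13 beta matches 6 lay in a common region and 1 more, at Pcdhb4, in a region seen in 3 libraries. In the 6 common regions the match lay 32 to 242 bp downstream of the strongest summit. The exon regions of Pcdhb18 and Pcdhb19 held no exact match. Of the 6 alpha matches 3 lay in a common region (Pcdha1, Pcdha4 and Pcdha12) and 1, at Pcdha8, in a region seen in 3 libraries, while the matches of Pcdha6 and Pcdha7 lay in none. A match of letters is a description and not a measured binding site. Genes of this family share sequence, so matches in them are not independent of each other.

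Over the interval 11 of the 54 common regions, or 20.4%, held the consensus, beside 9.18% of the common regions of the genome. Of all 68 regions 13 held it, beside 7.26% of all regions of the genome. Within 100 bp of the strongest summit it stood in 3 of the 54, beside 7.01%. Promoter windows of 1000 bp on both sides of a TSS held it in 6 of the 57 genes, all alpha, beside 2.05% of protein-coding genes, and with 1 mismatch in 13, beside 24.3%.

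The beta exon sites did not share a direction between the genotypes. The region at 37449147 to 37450115, in Pcdhb14, had percentiles of 85.6 and 82.8 in WT against 76.8 and 73.3 in K20R. The site in Pcdhb17, singled out after its values were seen, had 70.8 and 75.7 in WT against 57.0 and 56.5 in K20R. Both were lower, also when ranked anew and on the centred log2 pileup. In the Pcdhb12 exon, singled out likewise, the order was the opposite, with 21.6 and 35.3 in WT against 52.9 and 51.5 in K20R, on pileups of 12 and 19 against 24 and 31. The promoter of the same gene had its peak in WT only. The other 5 exon sites overlapped, with percentiles from 24.7 to 76.2.

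Of the 11 common regions with the consensus 3 were lower, 2 were higher and 6 overlapped, beside 29.4% lower and 16.7% higher over the 3535 common regions of the genome that held it. Ranked anew, 3 were lower and 5 higher, beside 21.3% and 29.5%.

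The background that the caller had set at each summit was also read, a quantity chosen after the data had been seen. No control library is stated, so it was set from the same reads as the peaks and is not a measure separate from the pileup. The background is given as a ratio to the lowest level of the same list, taken as the value that 1% of its peaks lay below. A ratio of 1 marks that level. Over the 17 common regions of gamma A and B the median ratio was 1.22 and 1.16 in WT against 1.69 and 2.18 in K20R. Over the 7 common regions of the C-type genes and constant exons it was 5.06 and 7.35 in WT against 3.07 and 4.06 in K20R. The ratio was higher in K20R at 14 of the 17 and lower at 0, and lower at 4 of the 7 and higher at 0, beside 14.8% higher and 17.2% lower over the common regions of the genome. Windows around neighbouring summits can share reads, so these counts are not of independent places.

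**Figure D4:**
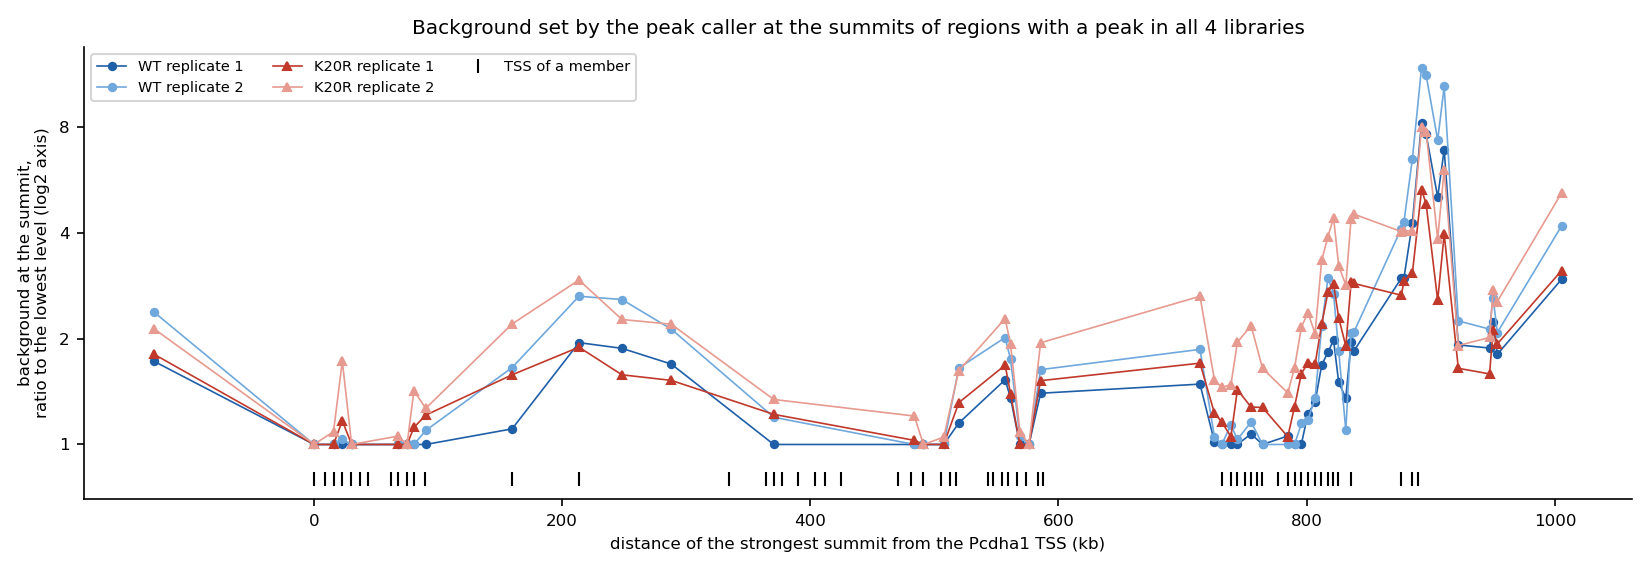
Background set by the caller at the summit for the 54 common regions, by distance from the Pcdha1 TSS in kb (horizontal axis). It is a ratio to the level that 1% of peaks in the same list lay below (vertical axis, log2 scale). Circles mark WT and triangles K20R libraries. The ratio peaks over the gamma C-type genes and constant exons, at 8.25 and 11.8 in WT against 5.32 and 8.0 in K20R, and at 14 of the 17 gamma A and B regions both K20R libraries lie above both WT libraries.

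The contrast in this background between these zones was therefore smaller in the K20R libraries. At the intronic site from 37835298 the ratio was 5.06 and 7.35 in WT against 2.57 and 3.85 in K20R. At the Pcdhga12 promoter, named after its values were seen, it was 1.95 and 2.07 in WT against 2.90 and 4.39 in K20R. At the Pcdhgc3 promoter, between these places, it was 2.97 and 4.11 against 2.66 and 4.04 and overlapped. The caller tests a pileup against this background, so a higher background gives a smaller −log10 p for the same pileup. At Pcdhga11 the ratio was 1.5 and 1.85 in WT against 2.30 and 3.23 in K20R, beside its percentile, which was lower, and its pileup, which was higher. Over the alpha and beta genes the median ratios lay between 1.00 and 1.27.

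Genes of this family share sequence, and reads of low mapping quality had been discarded. Within 1000 bp of the TSS the share of words of 50 bases that recurred within the interval was 3.69% to 17.9% in alpha, 0% to 12.7% in beta, 0% to 5.58% in gamma A, 0% to 10.6% in gamma B and 0% in C-type genes. The median was 3.69% over the 29 genes with a promoter peak in every library and 0% over the 24 without one, most of them beta genes, but the highest shares, 17.9% at Pcdha7 and 17.1% at Pcdha6, were also at genes without a peak. In the last 1000 bases of the first coding exon the share reached 46.8%, at Pcdhgb2. Copies elsewhere in the genome were not searched, and the part of discarded reads in the values was not tested.

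The interval holds the TSSs of 6 other protein-coding genes. Taf7, a general transcription factor gene between the beta and gamma clusters, had promoter percentiles of 88.2 and 91.0 in WT against 87.4 and 87.3 in K20R. Diaph1 had 90.9 and 94.1 against 92.8 and 95.8, and Slc25a2 had no peak in WT replicate 1, 17.5 in WT replicate 2, and 58.5 and 55.4 in K20R. Gm42416 shares the Pcdha4 peak, and Gm37013 and Gm37388 had none.

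Related genes elsewhere were read in the same way. Among all protein-coding genes 66.3% had a promoter peak in every library, and of these 32.2% were lower in K20R and 15.7% higher. Of 12 non-clustered protocadherin genes 10 had a promoter peak in every library, with 4 lower and 0 higher in K20R. Their median percentiles were 71.9 to 78.8 across the libraries, against 51.5 to 63.7 for the 29 clustered genes. Of 9 classical cadherin genes 8 had such a peak, with 2 lower and 4 higher. All 14 genes of proteins that act on clustered protocadherin promoters had one, with 3 lower and 4 higher. Ctcf, named after its values were seen, was among the higher ones, with 92.9 and 86.9 in WT against 95.6 and 93.6 in K20R. Ranked anew, 3 non-clustered protocadherin genes were lower and 1 higher, beside 22.9% and 23.9% of all protein-coding genes with such a peak. The classical cadherins and the genes of acting proteins then gave 2 lower and 5 higher in each list.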

How the data were processed

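ATAC-seq peak lists of day 4 embryoid bodies (WT and K20R, 2 libraries each, stated to be biological replicates) were analysed. The authors trimmed reads with Trim Galore, aligned them to mm10 with Bowtie2, removed reads of low mapping quality, duplicates and blacklisted regions, and called peaks in each library with MACS2. The deposited lists hold per peak a score, a fold over the local background (a ratio), a −log10 p and a −log10 q. Peak numbers in the deposited lists have gaps (51.7%, 50.5%, 58.6% and 60.8% kept in WT and K20R), by a rule not given in the sources used here. Within the interval 61.1% and 60.7% were kept in WT and 57.8% and 55.7% in K20R. Read totals are unknown. Summit pileups and backgrounds were recovered from fold and −log10 p, and 100% of pileups came out whole within 0.01. Poisson intervals cover counting error only.

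Genes came from GENCODE vM21. RefSeq was used to tell apart a pair of genes both named Pcdha11 there, the first of which is Pcdha10. Promoters spanned 1000 bp on both sides of any TSS, and peaks sharing 1 bp were merged. Named were the 5 C-type genes, the 20 genes with the highest mean percentile among those with a promoter peak in every library, genes and regions restricted to a genotype, and the 10 common regions outside promoters with the highest mean percentile. Members, lists and zones were chosen with earlier results of these data known. Genes and peaks are not replicates. Scripts were tested on simulated data and used Python 3.11.15, numpy 2.4.6, pandas 2.3.3, scipy 1.17.1 and matplotlib 3.10.9. Alternatives were other promoter widths, thresholds, scales, list lengths and left-out libraries.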

Additional observations from a re-analysis of the deposited data

How the results depend on the processing

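Leaving out a library moved the log2 ratio of K20R to WT peaks in the interval from 0.05 to between -0.0337 (without WT replicate 1, a change of sign) and 0.13. It left 31 to 31.3 genes with a promoter peak per library, 29 to 30 with one in every library and 54 to 58 common regions, and gave 1 to 3 WT-restricted and 1 to 5 K20R-restricted regions. Lower genes then numbered 4 to 10 and higher genes 10 to 16, lower common regions 19 to 26 and higher ones 15 to 20. The call then compares fewer libraries, so these counts are not on the footing of the main ones. Lower genes were 10 without WT replicate 1, 5 without WT replicate 2 and 8 without K20R replicate 2, and higher genes were 16 without WT replicate 2 or K20R replicate 1. At a −log10 q of at least 5, 0 regions were WT-restricted. With all lists cut to an equal number of their strongest peaks, 0 regions were WT-restricted, 5 were K20R-restricted, and 18 genes and 24 common regions were higher. Promoters of 2000 bp gave 5 lower genes. Ranking anew gave 21 higher common regions, and the centred log2 pileup 18 higher genes and 29 higher common regions. The background ratio, an alternative added after seeing the data, gave 5 lower and 20 higher common regions. The consensus was found in 13 promoter windows with 1 mismatch, in 0 windows from 250 bp before to 50 bp after the TSS, and in 11 common regions when searched throughout. The cause of these moves was not tested.

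Signs were followed for the 29 genes with a promoter peak in every library and for the 54 common regions. A promoter and its region count separately here, although they are the same site. Of the 37 whose genotypes did not overlap, 6 changed sign (K20R minus WT) under some alternative, in 10 of 448 values. With a library left out 0 did, but the call fixes this in advance. Both K20R libraries lay on the same side of both WT libraries. With lists of equal length Pcdhga11 and its region gave 2.11 percentile points and the Diaph1 region from 37879897 gave 0.67. That region gave 0.0714 when ranked anew and 0.0503 on the centred log2 pileup. On the latter scale the Pcdhga11 promoter gave 0.24, its region 0.33, the Taf7 promoter region 0.17 and the intronic region at 37761362 to 37761972 gave 0.32. Ranked by fold, the region from 37822159 gave 4.38. Of the 46 whose genotypes overlapped, 40 changed sign under some alternative, in 96 of 551 values, 50 of these with a library left out, so no direction should be read for them.

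Deviations of same-numbered libraries from their genotype means correlated by 0.098 over 38527 regions. The labels name no shared batch, but neither this nor the correlation can show that there was none. Whether same-numbered libraries were made together is thus unknown. With the replicate block the log2 ratio was 0.05, with 4 genes lower and 10 higher and 20 common regions lower and 12 higher. Low pileups limit weak sites, as 11 reads have a Poisson interval of 5.49 to 19.7.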
